A study of Homo sapiens with 8 samples.

Results

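Mucins are large glycoproteins of the epithelial surface, and 10 mucin genes were followed through RNA-seq of the human pancreatic ductal adenocarcinoma cell line SW1990. The 10 genes were taken by symbol from the 60483 genes of the count table. They comprised 6 genes of membrane-bound mucins (MUC1, MUC3A, MUC4, MUC13, MUC16 and MUC20) and 4 genes of gel-forming mucins (MUC2, MUC5AC, MUC5B and MUC6). The sample titles place every sample in the side population, meaning cells that pump out a DNA dye, and name a control and a PAF1 CRISPR knockdown (KD). PAF1 is a subunit of the PAF1 complex, which travels with RNA polymerase II during elongation, and the series title links it to stemness. Groups had 2 libraries each, and the 2 lanes of every library were summed. In each group, the name of 1 library in the table began with SP and that of the other did not. The libraries are called SP-prefixed and unprefixed here, because the titles use SP for all samples and do not say what the prefix in the table separates. Both SP-prefixed names also held the token P3, which the labels do not explain and neither unprefixed name had, so prefix and token cannot be told apart. The word CRISPR stood in the names of all libraries but the unprefixed control. The labels did not say whether the knockdown cells were a clone or a pool, or whether the libraries came from separate cultures.

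Membrane-bound mucins have a transmembrane or otherwise anchored part and a long extracellular stretch rich in serine and threonine, to which O-linked sugars are attached. They form the glycocalyx, and several of them, such as MUC1 and MUC4, also take part in signalling with receptor tyrosine kinases. Gel-forming mucins are secreted, joined end to end through cysteine-rich domains, and give mucus its viscosity. Normal pancreatic ducts express MUC1 and MUC6, while MUC4, MUC5AC and MUC16 are known for their appearance in pancreatic cancer and its precursor lesions.

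Library totals ran from 17234973 to 22348416 counts, and the lanes of a library agreed within sampling noise or nearly so (chi-square per degree of freedom 1.00 to 1.04). PAF1 mRNA did not separate the groups. It stood at 55.1 CPM (counts scaled to library size, itself adjusted by edgeR's TMM factor) in the unprefixed control, 43.9 in the SP-prefixed control, and 41.7 (unprefixed) and 44.4 (SP-prefixed) in the PAF1 KD-labelled libraries, so directions below rest on the labels. Of 8 ductal epithelial markers, 7 were measured at levels that passed the filter, and CFTR had at most 1 count in any library. The summed level of the epithelial list was 5503 to 6724 CPM. The summed marker levels were at most 1.5 CPM for acinar cells, 0.352 CPM for islet cells and 0.896 CPM for leukocytes. For fibroblasts (36.3 to 45.5 CPM, with COL3A1 and DCN at 0) and endothelial cells (23.8 to 29.8 CPM) the most abundant markers were COL1A1 (29.8 to 37.9 CPM) and CDH5 (20.7 to 27.4 CPM).

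The repeats that carry the sugars are shown for 4 members, as a script found them in the longest coding sequence of each gene in GENCODE release 29 on GRCh38. They are the most frequent exact copy of the repeat, read 5′ to 3′ on the coding strand, with codons for serine and threonine in capitals.
MUC1: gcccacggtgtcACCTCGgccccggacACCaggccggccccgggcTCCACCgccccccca
MUC4: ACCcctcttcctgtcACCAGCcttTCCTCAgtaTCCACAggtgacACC
MUC20: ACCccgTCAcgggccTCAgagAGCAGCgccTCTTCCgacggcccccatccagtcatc
MUC5AC: AGCcctgttcccACCACCAGCACA
The MUC1 unit is 60 bases long and had 43 copies at 80% identity or more, of which 19 were exact. The MUC4 unit of 48 bases had 189 copies at that identity and 14 exact ones, the MUC20 unit of 57 bases had 12 and 10, and the MUC5AC unit of 24 bases had 38 and 15. Serine and threonine took 5 of 20 codons in the MUC1 unit, 8 of 16 in MUC4, 7 of 19 in MUC20 and 5 of 8 in MUC5AC. Reads inside such repeats match several places in the same gene, and how the authors counted reads with several matches is not given in the sources used here.

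Over the whole coding sequence, 3 gel-forming members held a larger share of cysteine codons than any membrane-bound one, while their shares of serine and threonine codons overlapped. Serine and threonine made up 24.0% (MUC13) to 49.6% (MUC3A) of codons in the membrane-bound members and 30.2% (MUC6) to 35.2% (MUC5AC) in the gel-forming members with a long coding sequence. Cysteine made up 4.51% of codons in MUC6, 4.76% in MUC5B and 5.2% in MUC5AC, against at most 0.85% in MUC1, MUC3A, MUC4, MUC16 and MUC20. MUC13, whose extracellular part carries cysteine-rich EGF-like domains, had 3.91%. The annotation gave MUC2 a coding sequence of only 393 bases, and MUC2 was not used for these shares.

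All 10 genes passed the filter on low counts and were tested. Levels between genes were compared per length, as CPM divided by the exon length in kilobases. In both unprefixed libraries MUC1 was the highest (48.5 CPM per kb in the control, 24.3 in the PAF1 KD-labelled library), followed by the gel-forming MUC5AC (19.7 and 15.6) and MUC20 (8.38 and 3.47). In both SP-prefixed libraries MUC5AC was the highest (67.7 CPM per kb in the control, 29.1 in the PAF1 KD-labelled library), followed by MUC1 (30.2 and 15.1) and MUC16 (18.3 and 7.28). The ranges of MUC1 and MUC5AC over the 4 libraries overlapped, as did those of MUC16, MUC4, MUC2 and MUC20. MUC3A was the lowest in every library, at 0.0559 to 0.153 CPM per kb, and MUC6 (0.183 to 0.590) and MUC13 (0.286 to 0.854) overlapped above it. In bulk RNA, fewer cells that express a gene and less RNA per cell cannot be told apart.

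**Figure D1:**
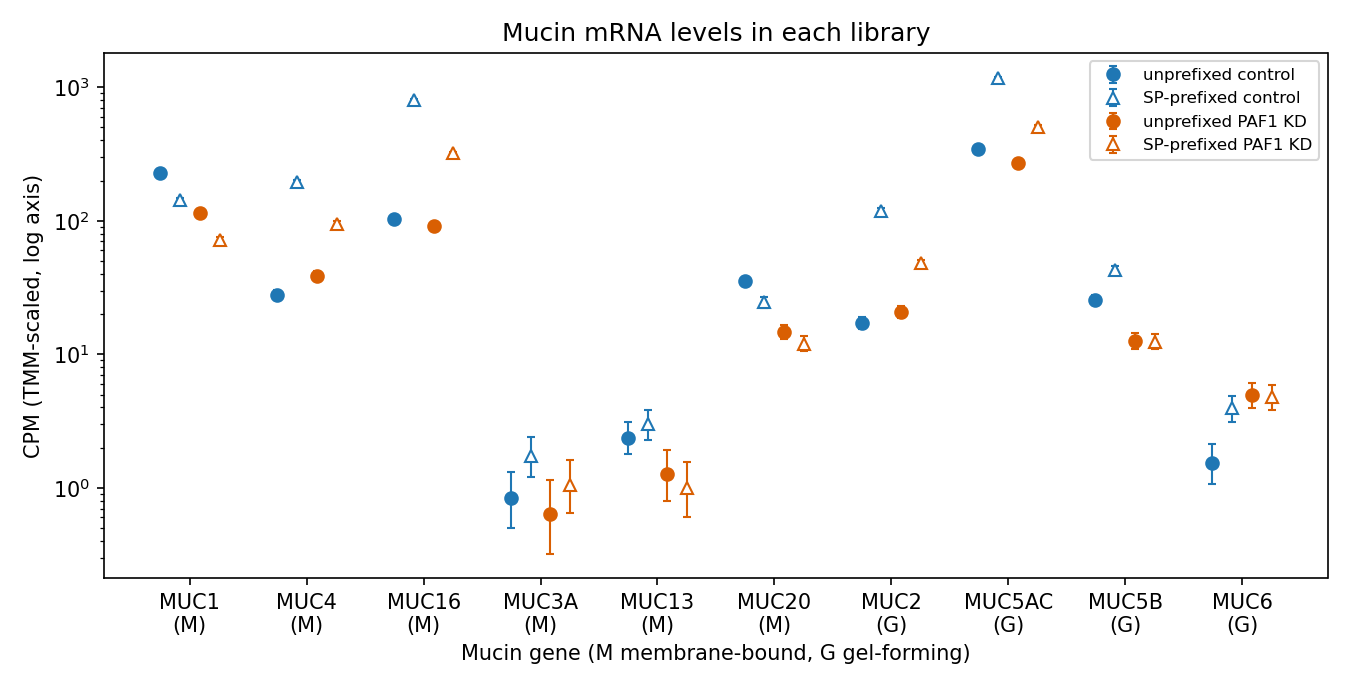
Level of each mucin gene in CPM (log axis) in the 4 libraries, with 95% counting intervals; circles are unprefixed and open triangles SP-prefixed libraries, blue is control and orange PAF1 knockdown. MUC16 stood at 803 CPM in the SP-prefixed control, against 91.1 to 319 CPM elsewhere, while MUC1 was lowest in the SP-prefixed PAF1 KD-labelled library (71.5 CPM).

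MUC1 was the member whose difference between the groups was most alike in the pairs of libraries. MUC1 (ENSG00000185499, GRCh38 chromosome 1, 155185824 to 155192916, minus strand) encodes a transmembrane mucin whose cytoplasmic tail binds beta-catenin and kinases. It had 229 CPM in the unprefixed control and 143 CPM in the SP-prefixed control, against 114 CPM (unprefixed) and 71.5 CPM (SP-prefixed) in the PAF1 KD-labelled libraries. Both PAF1 KD-labelled libraries lay below both controls. The log2 ratio of PAF1 knockdown to control was -0.999 for the unprefixed pair (95% counting interval -1.07 to -0.92) and -0.996 for the SP-prefixed pair (-1.09 to -0.90). Libraries are paired by the prefix alone, and intervals cover counting error only.

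MUC20 and MUC13 lay on the same side. MUC20 (ENSG00000176945, chromosome 3, 195720882 to 195741123, plus strand), a mucin known as a partner of the MET receptor, had 35.6 and 24.4 CPM in the unprefixed and SP-prefixed controls, against 14.7 and 12.1 CPM in the PAF1 KD-labelled libraries. Its groups did not overlap, with log2 ratios of -1.27 (-1.48 to -1.07) for the unprefixed pair and -1.02 (-1.25 to -0.79) for the SP-prefixed pair. Of its exon length, 42.8% is shared with the overlapping transcript MUC20-OT1 on the same strand, and the near-identical pseudogene MUC20P1 may share reads. MUC20-OT1 stood at 31.0 and 29.1 CPM in control, and at 30.0 and 25.2 CPM in PAF1 KD-labelled libraries, and MUC20P1 had 3.57 and 2.89 against 1.97 and 1.79 CPM. MUC13 (ENSG00000173702, chromosome 3, 124905442 to 124953819, minus strand), a transmembrane mucin of the gut and other glandular epithelia, was low, with 54 and 60 counts in the controls and 22 and 19 in the PAF1 KD-labelled libraries. These are 2.38 and 2.99 CPM against 1.27 and 1.00 CPM, and the groups did not overlap.

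MUC16 and MUC4 followed the prefix more than the group. MUC16 (ENSG00000181143, chromosome 19, 8848844 to 8981342, minus strand) encodes the membrane mucin that carries the CA125 antigen and binds mesothelin. Its merged exons number 84 and the largest of them spans 21693 bases. It had 103 CPM in the unprefixed control, 803 in the SP-prefixed control, and 91.1 (unprefixed) and 319 (SP-prefixed) in the PAF1 KD-labelled libraries. Both SP-prefixed libraries were above both unprefixed ones, and the SP-prefixed control was the highest. The log2 ratio of PAF1 knockdown to control was -0.17 (-0.27 to -0.08) for the unprefixed pair and -1.33 (-1.37 to -1.29) for the SP-prefixed pair.

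MUC4 (ENSG00000145113, chromosome 3, 195746765 to 195812277, minus strand), a membrane mucin that can bind ERBB2, had the same order of libraries at the top. It had 27.9 and 195 CPM in the unprefixed and SP-prefixed controls, against 38.9 and 94.7 CPM in the PAF1 KD-labelled libraries. The log2 ratio of PAF1 knockdown to control was 0.48 (0.32 to 0.64) for the unprefixed pair and -1.04 (-1.13 to -0.96) for the SP-prefixed pair, so the pairs had opposite signs. MUC3A (ENSG00000169894, chromosome 7, 100949555 to 100968346, plus strand), an intestinal membrane mucin, had only 19 and 35 counts in the controls and 11 and 20 in the PAF1 KD-labelled libraries. Both of its pair intervals included no difference.

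Among the gel-forming genes, MUC5AC was the most abundant and MUC2 the one most like MUC16. MUC5AC (ENSG00000215182, chromosome 11, 1157953 to 1201138, plus strand), the main gel-forming mucin of gastric surface cells and airway goblet cells, had 344 CPM in the unprefixed control, against 1180 CPM in the SP-prefixed control. The PAF1 KD-labelled libraries had 271 CPM (unprefixed) and 507 CPM (SP-prefixed). Its log2 ratio of PAF1 knockdown to control was -0.34 (-0.40 to -0.29) for the unprefixed pair and -1.22 (-1.25 to -1.18) for the SP-prefixed pair. MUC2 (ENSG00000198788, chromosome 11, 1074875 to 1110511, plus strand), the main mucin of the colon, had 17.2 and 119 CPM in the unprefixed and SP-prefixed controls, against 20.8 and 47.9 CPM in the PAF1 KD-labelled libraries. The ratio was 0.27 (0.06 to 0.48) for the unprefixed pair and -1.31 (-1.43 to -1.20) for the SP-prefixed pair. For both genes the SP-prefixed libraries were above the unprefixed ones, and for both the SP-prefixed control stood far above the other libraries.

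MUC5B and MUC6 differed from those 2 genes and from each other. MUC5B (ENSG00000117983, chromosome 11, 1223066 to 1262172, plus strand), the gel-forming mucin of airway and salivary glands, had 25.4 and 43.2 CPM in the unprefixed and SP-prefixed controls, against 12.5 and 12.4 CPM in the PAF1 KD-labelled libraries. The latter lay below both controls and differed from each other by less than counting error, with log2 ratios to control of -1.02 (-1.25 to -0.79) for the unprefixed pair and -1.80 (-2.01 to -1.59) for the SP-prefixed pair. MUC6 (ENSG00000184956, chromosome 11, 1012821 to 1036706, minus strand), a mucin of gastric glands and small pancreatic ducts, was the member with higher values in the PAF1 KD-labelled libraries. It had 35 and 79 counts in the unprefixed and SP-prefixed controls and 86 and 91 counts in the PAF1 KD-labelled libraries. In CPM these were 1.54 and 3.93 against 4.97 and 4.79. The log2 ratio to control was 1.69 (1.11 to 2.30) for the unprefixed pair. The interval of the SP-prefixed pair included no difference (log2 ratio 0.28, -0.17 to 0.74).

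Across the members, both PAF1 KD-labelled libraries were below both controls for 4 of 10 genes (MUC1, MUC13, MUC20 and MUC5B), against 22.6% of all 16417 genes tested. They were above both controls for 1 (MUC6), against 22.1% of all genes. Both SP-prefixed libraries were above both unprefixed ones for 5 of 10 (MUC4, MUC16, MUC3A, MUC2 and MUC5AC), against 17% of all genes, and below them for 0, against 16.6%. MUC3A had few counts. In the PAF1 KD-labelled libraries, the counting interval of its ratio of SP-prefixed to unprefixed included no difference (log2 ratio 0.73, -0.40 to 1.93).

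**Figure D2:**
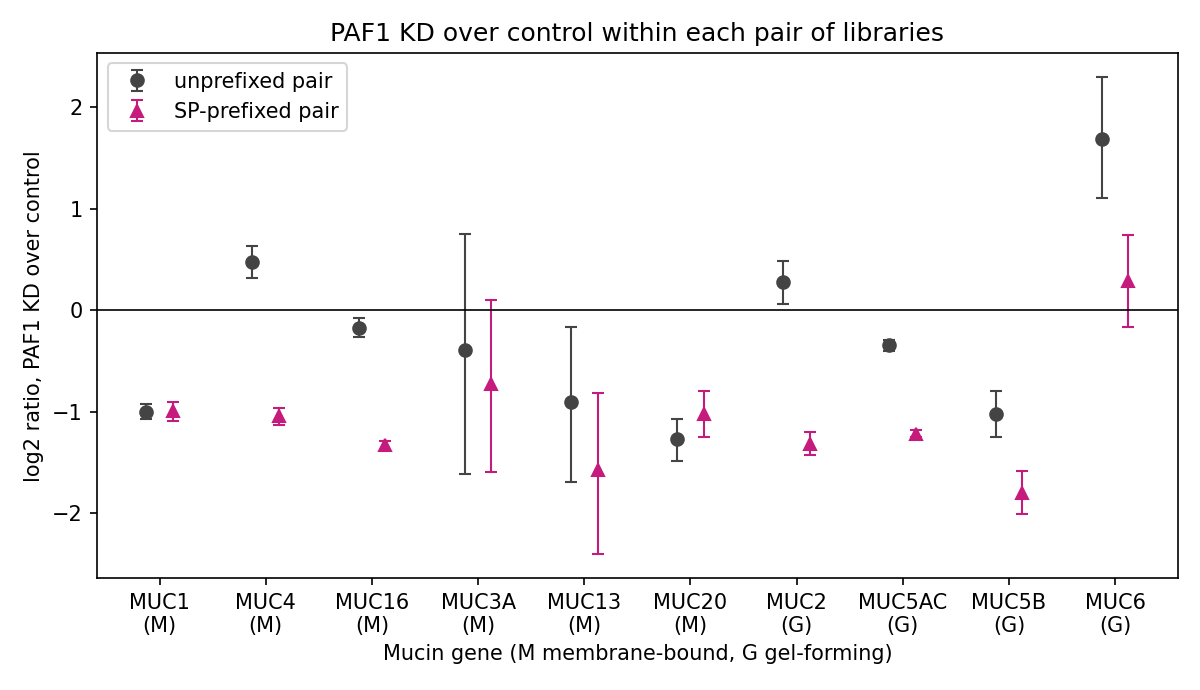
Log2 ratio of PAF1 knockdown to control for each mucin gene for the unprefixed pair (circles) and the SP-prefixed pair (triangles), with 95% counting intervals. MUC1 had -0.999 and -0.996, whereas MUC4 had 0.48 and -1.04 and MUC2 0.27 and -1.31.

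Between the groups alone, no mucin gene passed the test. edgeR called 0 of 16417 genes at a Benjamini-Hochberg adjusted p under 0.05 (0%), with 1846 genes and 4 of the members (MUC1, MUC13, MUC20 and MUC5B) at an unadjusted p under 0.05. The fold change was negative for 9 of 10 members, against 51.7% of all genes, and log2 fold changes ran from -1.46 ± 0.26 for MUC5B to 0.84 ± 0.42 for MUC6 (SE, n = 2 libraries per group). These values depended on the control libraries. Without the SP-prefixed control, the log2 fold changes of MUC4, MUC16, MUC2, MUC5AC and MUC3A turned positive (1.26, 1.00, 1.00, 0.18 and 0.026). Without the unprefixed control, they were -1.95 for MUC16, -1.78 for MUC2 and -0.60 for MUC1. In each of these fits a lone control of 1 prefix is set against PAF1 KD-labelled libraries of both prefixes. A difference by prefix therefore enters the fold change. For MUC16, MUC5AC and MUC3A both pair ratios were negative, while those of MUC4 and MUC2 for the unprefixed pair were positive. The lone control is also assumed to vary like the other group. DESeq2 on all libraries called 262 of 16417 genes, with MUC1, MUC20 and MUC5B among them. edgeR without the filter on low counts called 902 of 30366 genes, with 8 members.

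With the prefix as a term, which compares the groups within the prefix classes, 3 mucin genes fell. MUC1 fell by 0.997 ± 0.13 on the log2 scale (SE, n = 2 libraries per group; edgeR, Benjamini-Hochberg adjusted p = 0.0114), MUC20 fell by 1.15 ± 0.17 (edgeR adjusted p = 0.0145) and MUC5B fell by 1.41 ± 0.21 (edgeR adjusted p = 0.0145). In all, 304 genes (1.85% of those tested) were called, of which 220 (1.34%) were lower and 84 higher. The other 7 members did not pass. MUC5AC had -0.78 ± 0.19 (edgeR adjusted p = 0.0792), MUC13 -1.23 ± 0.32 (0.0932), MUC16 -0.76 ± 0.23 (0.149), MUC6 0.92 ± 0.33 (0.220), MUC2 -0.56 ± 0.30 (0.420), MUC3A -0.59 ± 0.36 (0.486) and MUC4 -0.31 ± 0.29 (0.670). The fit had 1 residual degree of freedom before edgeR moderated the spread across genes, and it favours genes on which the pairs agree.

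Between the prefixes, with the group as a term, 4 mucin genes were higher in the SP-prefixed libraries. MUC16 had the smallest p of all genes, at a log2 value of 2.39 ± 0.24 (SE, n = 2 libraries per prefix; edgeR, Benjamini-Hochberg adjusted p = 0.0308). MUC4 was higher by 2.05 ± 0.30 (edgeR adjusted p = 0.0429), MUC2 by 2.01 ± 0.31 (edgeR adjusted p = 0.0440) and MUC5AC by 1.34 ± 0.19 (edgeR adjusted p = 0.0429). In all, 30 genes (0.183% of those tested) were called, 19 of them higher and 11 lower. MUC1 stood at -0.68 ± 0.13 on that scale (edgeR adjusted p = 0.0847) and was lower in the SP-prefixed library of both groups. The calls lay close to the threshold. With RLE scaling 0 genes passed, and the 4 members had adjusted p of 0.0557 to 0.0638 at fold changes that moved by less than their errors, while 1718 genes had an unadjusted p under 0.05 in the fit with TMM scaling. DESeq2 called MUC16, MUC5AC and MUC1 but gave MUC4 and MUC2 an adjusted p of 0.287 and 0.383. With library size as the only scaling, 59 genes passed, and the share that was higher was 52.5% in place of 63.3%.

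**Figure D3:**
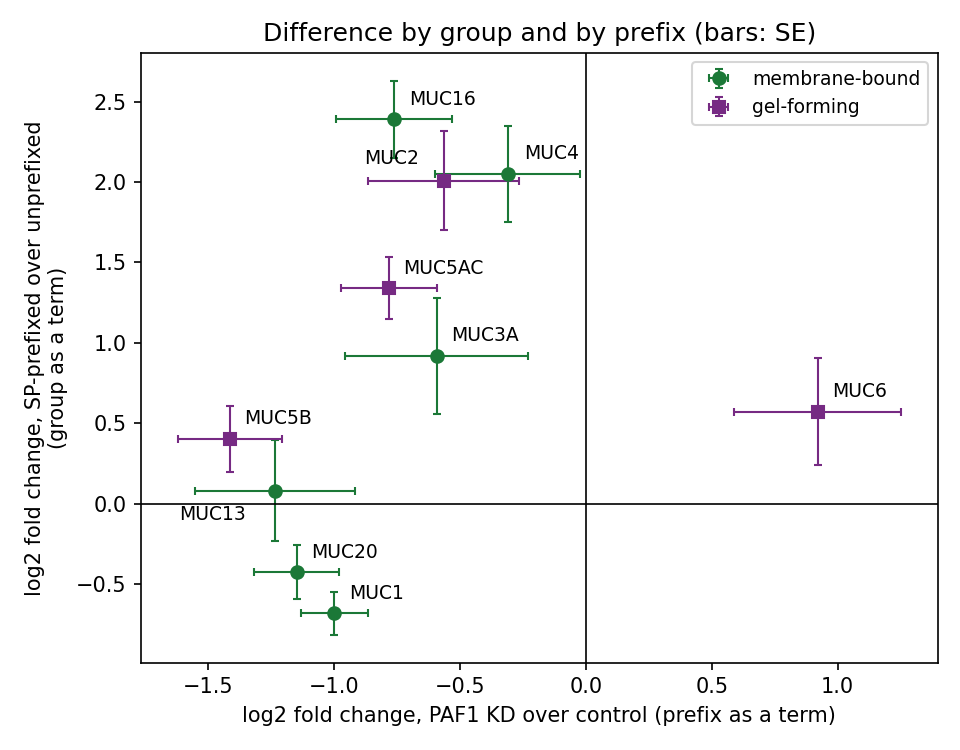
Log2 fold change by group (horizontal axis, PAF1 knockdown over control with the prefix as a term) against log2 fold change by prefix (vertical axis, SP-prefixed over unprefixed with the group as a term) for 10 mucin genes, with bars of 1 SE. MUC16, MUC4 and MUC2 lie above 2.00 on the vertical axis, while MUC1, MUC20, MUC13 and MUC5B lie at or below -0.997 on the horizontal axis and between -0.68 and 0.40 on the vertical one.

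Genes that followed the group and genes that followed the prefix were found in both classes. The median log2 fold change between the groups with the prefix as a term was -0.88 over the 6 membrane-bound members and -0.67 over the 4 gel-forming ones, against -0.01 over all genes. Between the prefixes the medians were 0.50 and 0.96, against -0.01. In the unprefixed pair the group medians were -0.65 and -0.03, and for the SP-prefixed pair -1.03 and -1.27. The genes called lower with PAF1 knockdown comprised 2 membrane-bound and 1 gel-forming member, and the genes called higher with the prefix 2 of each class. Members are not replicates of a class, so no test was made between the classes. In the fit without the prefix as a term, the group medians were -1.07 and -0.98. Without the SP-prefixed control that fit gave -0.52 and 0.59, but its prefixes were then unbalanced between the groups.

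Summed over the 10 genes, mucin mRNA took 0.0800% of counts in the unprefixed control, 0.249% in the SP-prefixed control, and 0.0573% (unprefixed) and 0.106% (SP-prefixed) in the PAF1 KD-labelled libraries. Membrane-bound members held 50.6% (95% exact binomial interval 49.9% to 51.3%) of these counts in the unprefixed control, 46.5% (46.1% to 46.9%) in the SP-prefixed control, and 45.7% (44.7% to 46.7%) and 46.6% (45.9% to 47.3%) in the PAF1 KD-labelled libraries. The counts of the classes were thus close to each other in every library. Scaled by exon length, MUC1 alone held 57.8% of the mucin signal in the unprefixed control and 48.0% in the unprefixed PAF1 KD-labelled library. In the SP-prefixed libraries it held 20.9% and 23.6%. MUC5AC went the other way, with 23.5% and 30.8% of the mucin signal in the unprefixed libraries against 46.9% and 45.3% in the SP-prefixed ones.

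**Figure D4:**
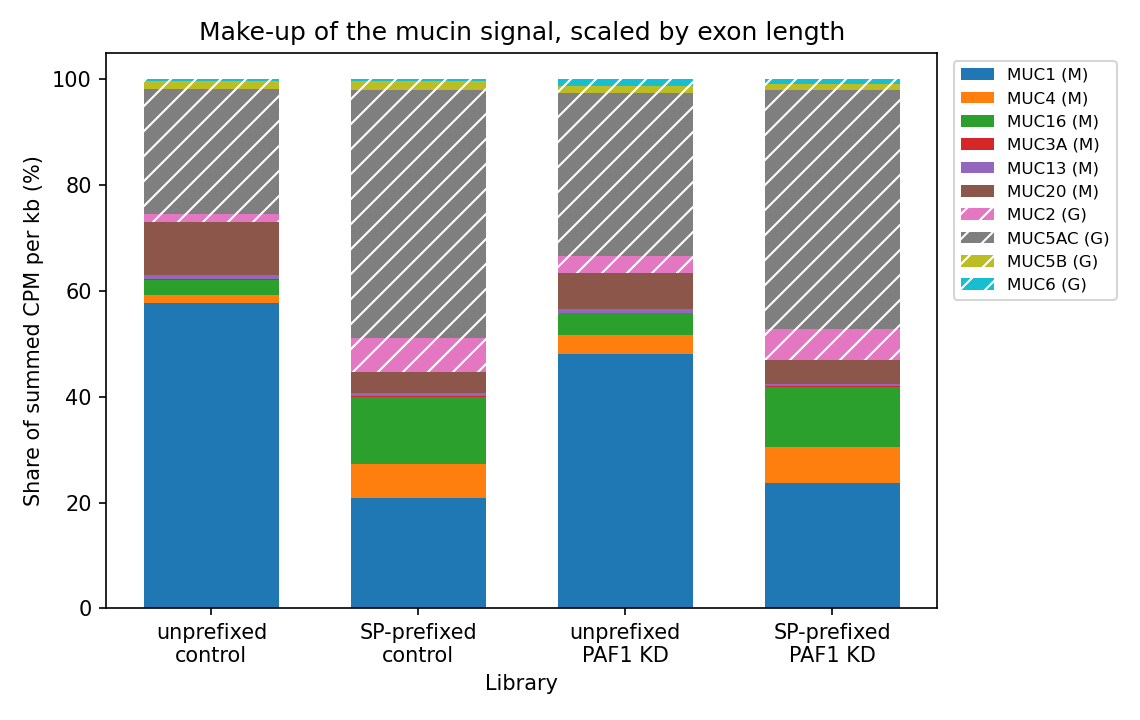
Share of each gene in the summed CPM per kb of the 10 mucin genes in each library (M membrane-bound, plain; G gel-forming, hatched). Membrane-bound genes held 73.0% and 63.4% in the unprefixed libraries and 44.7% and 46.9% in the SP-prefixed libraries, control first.

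Upstream sequences are shown for MUC1, a gene that fell with the PAF1 knockdown label, and for MUC2, a gene that was higher with the prefix. They are the 250 bases before the start of the gene in RefSeq on GRCh38.p14, read in the direction of the gene, with the motif matches described after them in capitals, on either strand. RefSeq entries were found for 6 of the 10 members (MUC1, MUC2, MUC3A, MUC4, MUC13 and MUC16).
MUC1, chr1:155192916-155193165, minus strand: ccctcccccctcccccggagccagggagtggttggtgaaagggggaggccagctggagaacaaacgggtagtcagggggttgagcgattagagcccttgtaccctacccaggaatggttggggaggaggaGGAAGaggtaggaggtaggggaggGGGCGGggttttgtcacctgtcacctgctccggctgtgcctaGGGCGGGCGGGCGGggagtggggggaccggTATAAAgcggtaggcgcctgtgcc
MUC2, chr11:1074624-1074873, plus strand: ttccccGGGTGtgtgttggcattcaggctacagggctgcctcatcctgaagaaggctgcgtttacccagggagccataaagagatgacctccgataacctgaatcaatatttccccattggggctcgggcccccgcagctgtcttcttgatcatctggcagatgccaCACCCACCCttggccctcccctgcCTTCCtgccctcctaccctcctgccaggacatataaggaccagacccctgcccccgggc
The MUC1 window held 1 match to the TATA box, searched as TATAAA. It also held 4 matches to the GC box, searched as GGGCGG, and 3 of these overlap each other. The CACCC box had 3 matches in the MUC2 window, of which 2 overlap, and 0 in the MUC1 window. The MUC2 window had 0 exact matches to TATAAA or GGGCGG. Near its end it holds the letters TATAAG, which the search for TATAAA does not count. Each window held 1 ETS core, searched as GGAAG. No match overlapped one of another motif. Of 35116 RefSeq promoters of this length, 10.7% held the TATA box, 42.6% the GC box, 54.7% the CACCC box and 65.1% the ETS core. The GATA site AGATAA was not in these windows, and 9.17% of promoters held it. These matches describe letters and say nothing of a factor.

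Some mucin genes that lie side by side were called in different comparisons, and others in the same one. The 4 gel-forming genes lie in a cluster on chromosome 11, in the order MUC6, MUC2, MUC5AC and MUC5B. MUC2 and MUC5AC are 47.4 kb apart, and both were called by prefix in edgeR with TMM scaling. With RLE scaling neither passed, and DESeq2 gave MUC2 an adjusted p of 0.383. MUC5AC and MUC5B are 21.9 kb apart, and the former was called by prefix and the latter by group. By group with the prefix as a term, MUC5AC was near the threshold (-0.78, edgeR adjusted p = 0.0792), and DESeq2 called it (adjusted p = 0.0355). TOLLIP, which encodes an adaptor of innate immune signalling and lies 12.2 kb past MUC5B, had 36.0 to 42.7 CPM in all libraries. AP2A2, a subunit gene of the AP-2 endocytic adaptor 0.6 kb from MUC6, had 85.0 to 94.2 CPM. On chromosome 3, MUC20 and MUC4 face each other tail to tail, 5.6 kb apart. MUC20 fell with the group label and MUC4 was higher with the prefix, the latter not called with RLE scaling or with DESeq2 (adjusted p = 0.287). For the SP-prefixed pair, the log2 ratios of PAF1 knockdown to control were alike, at -1.02 for MUC20 and -1.04 for MUC4. For the unprefixed pair they were -1.27 and 0.48. Of 25 tested genes that are not members and are among the nearest 2 on either side of a member, 0 were called by group with the prefix as a term (lowest edgeR adjusted p 0.0665, for HEG1) and 0 by prefix (lowest edgeR adjusted p 0.266). With 1.85% and 0.183% of all genes called in those fits, these counts are near the background. At an unadjusted p under 0.05 there were 4 and 1 of the 25, against 15.2% and 10.5% of all genes.

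The genes with the most similar pattern over the 4 libraries were searched among 11280 genes with a mean of at least 5 CPM, by Euclidean distance between log2 CPM values centred per gene. For MUC1 the nearest were VSIG2 (distance 0.090), an immunoglobulin superfamily gene, COL9A2 (0.133), a collagen gene, and the HLA class II gene HLA-DRA (0.136). HLA-DRA had 42.0 and 23.4 CPM in the unprefixed and SP-prefixed controls, against 21.2 and 12.7 CPM in the PAF1 KD-labelled libraries. The nearest member to MUC1 was MUC20 (0.327), while MUC16 was at 3.13.

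For MUC16 the genes nearby included INSIG1 (0.480), a regulatory protein of the endoplasmic reticulum, and MUC2 (0.503). INSIG1 had 20.1 and 117 CPM in the unprefixed and SP-prefixed controls, against 19.4 and 47.4 CPM in the PAF1 KD-labelled libraries. MUC4 lay at 0.608 from MUC16 and MUC5AC at 1.06. For MUC5B the nearest were ASS1 (0.171), an enzyme of arginine synthesis, IL20RB (0.214), a cytokine receptor subunit, and BICDL2 (0.248). With 4 libraries, many genes can share a pattern, and the distances are descriptions.

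Among other mucin and mucin-like genes, 17 were listed, 15 were found by symbol and 3 passed the filter. MCAM, an adhesion molecule once named MUC18, rose by 1.88 ± 0.25 (SE; edgeR with the prefix as a term, Benjamini-Hochberg adjusted p = 0.0114), from 1.28 and 3.48 CPM in the unprefixed and SP-prefixed controls to 5.78 and 11.1 CPM. The sialomucins CD164 and PODXL had log2 fold changes of 0.01 ± 0.13 and 0.07 ± 0.14. MUC7, MUC17, MUC19, MUC22 and EMCN had a count of 0 in all 4 libraries, and MUC12 at most 7 counts.

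Of 17 genes that accompany gel-forming mucins in the secretory pathway, 13 were tested, and with the prefix as a term 6 of them fell and 0 rose (edgeR; 1.85% of all genes were called). Both PAF1 KD-labelled libraries were below both controls for 10 of the 13, against 22.6% of all genes, with a median log2 fold change with the prefix as a term of -0.91 against -0.01 over all genes. Without that term 0 were called, as over all genes, and 9 of the 13 had an unadjusted p under 0.05, against 11.2% of all genes. BPIFB1, a secreted airway protein, had 7.97 and 3.14 CPM in the unprefixed and SP-prefixed controls, against 1.91 and 0.737 CPM in the PAF1 KD-labelled libraries (log2 fold change -2.07 ± 0.27; edgeR adjusted p = 0.0114). ERN2, the stress sensor of mucous cells, had 24.3 and 14.0 CPM against 11.2 and 6.63 CPM (-1.10 ± 0.18; adjusted p = 0.0196). AGR2, a disulfide isomerase needed for mucin folding in mouse intestine, had 246 and 176 CPM against 166 and 86.3 CPM (-0.80 ± 0.15; adjusted p = 0.0350). CLCA4 fell by 1.77 ± 0.31 (adjusted p = 0.0264). By prefix, 12 of the 13 genes had a negative fold change, against 51.2% of all genes, with a median of -0.77. Of the 13, 0 were called by prefix, against 0.183% of all genes. At an unadjusted p under 0.05 by prefix there were 10 of the 13, against 10.5% of all genes (edgeR). All 4 gel-forming members had a positive fold change by prefix. For MUC5B and MUC6, however, the ratio of SP-prefixed to unprefixed in the PAF1 KD-labelled libraries was -0.01 and -0.05 (log2).

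Of 17 tested enzymes that start and extend O-glycans, 2 fell and 0 rose with the prefix as a term (1.85% of all genes were called), and the median log2 fold change was -0.03, against -0.01 over all genes. ST6GALNAC1, which adds sialic acid to the first sugar and so makes the sialyl-Tn antigen, had 45.9 and 26.2 CPM in the unprefixed and SP-prefixed controls, against 17.2 and 11.2 CPM in the PAF1 KD-labelled libraries (log2 fold change -1.33 ± 0.16; edgeR adjusted p = 0.0103). GCNT3, a branching enzyme of mucin glycans, had 2.86 and 3.63 CPM against 0.925 and 0.895 CPM (-1.83 ± 0.31; adjusted p = 0.0229). The chain-starting GALNT2 and the core enzyme C1GALT1 had log2 fold changes of 0.24 ± 0.13 and -0.11 ± 0.15.

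Of 15 tested ligands and membrane partners of membrane-bound mucins, 1 fell with the prefix as a term, against 1.85% of all genes called. It was the receptor gene ERBB3 (-0.71 ± 0.14; edgeR adjusted p = 0.0422). It had 113 and 114 CPM in the unprefixed and SP-prefixed controls, against 75.3 and 63.3 CPM in the PAF1 KD-labelled libraries. MSLN, which encodes the MUC16 ligand mesothelin, had 228 and 160 CPM against 142 and 128 CPM and did not pass (-0.51 ± 0.14; adjusted p = 0.126). Of 9 tested proteases and sheddases 0 were called in that fit and 6 had an unadjusted p under 0.05, against 1.85% and 15.2% of all genes, and ADAM9 and MMP14, the most abundant, had 0.18 ± 0.13 and -0.39 ± 0.14. Of 24 tested transcription factors linked to mucin genes 0 were called, also against 1.85%, and 9 had an unadjusted p under 0.05. The factor genes named here are EHF (-0.54 ± 0.14), KLF5 (-0.68 ± 0.16; adjusted p = 0.0702) and SP1 (-0.34 ± 0.14). In lists this short, 0 or 1 call is near that background but cannot show how a list compares with all genes. Among the 15 ligands and partners, 8 had an unadjusted p under 0.05 in that fit. These 8, the 6 proteases and the 9 factors stand against 15.2% of all genes, and the difference was not tested. In the edgeR fits by prefix and by group alone, 0 genes of these lists were called, against 0.183% and 0% of all genes.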

How the data were processed

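RNA-seq was made from SW1990 cells. Total RNA with an integrity number of 10 came from a mirVana isolation and went into TruSeq RNA libraries, per the labels' protocols. The authors deposited whole-number read counts per gene and lane without normalization, with exon lengths. FastQC, HISAT2 and featureCounts stand in the submitters' processing notes, beside the builds hg19 and GRCh38. The coordinates of the 10 genes were those of GENCODE release 29 on GRCh38. Whether counting used strand is not given in the sources used here. Antisense and overlapping genes therefore cannot be told apart. Of 60483 identifiers, 56321 had a symbol.

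Column names gave group and lane but no library number. Names with PD2, a synonym of PAF1, were taken as PAF1 knockdown and names with C as control. Counts of the 2 lanes were summed. Genes were tested with edgeR 4.0.16 (quasi-likelihood F test, TMM scaling, expression filter with a minimum count of 10, Benjamini-Hochberg adjustment at 0.05) in R 4.3.3, in 3 fits over all 4 libraries: group, group with the prefix as a term, and prefix with the group as a term. An interaction would leave no residual degrees of freedom. Standard errors were derived from the F statistic. Pair ratios have 95% exact binomial intervals of counting error, and CPM 95% Poisson intervals. Libraries may be technical repeats. The p-values rest on the spread between these libraries, which edgeR moderated across genes, and cover no spread between further cultures. The fits were also run on simulated counts with known changes. Those changes were the same in both pairs of libraries, unlike the ratios of MUC4 and MUC2 here. That run therefore does not bear on such genes.

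The members, gene lists, tests and the rule for named genes were chosen with earlier results of these data known. All 10 members were named. In other lists up to 4 genes were named, first those called in a group fit by adjusted p and otherwise the most abundant. Some genes that this rule or the search for similar patterns would name are not reported here. MUC20P1, MSLN, GALNT2, C1GALT1, CD164, PODXL and MUC12 were named outside that rule, after their values were seen. Alternatives were DESeq2 1.42.0, limma-voom (limma 3.58.1), RLE, upper quartile and library size scaling, no filter, a minimum count of 50, each lane alone, and leaving out each library in the group fit. Sequences came from GENCODE release 29 and from RefSeq, with Python 3.11.15. Tables and figures used pandas 2.3.3, numpy 2.4.6 and matplotlib 3.10.9.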

Additional observations from a re-analysis of the deposited data

Results flagged for a closer look

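Several mucin genes moved in opposite directions in the pairs of libraries, and the difference between the pairs was not tested, since it would leave no residual degrees of freedom. For MUC4 the log2 ratio of PAF1 knockdown to control was 0.48 for the unprefixed pair and -1.04 for the SP-prefixed pair, a difference of -1.52. For MUC2 it was 0.27 and -1.31, a difference of -1.59. The ratio of SP-prefixed to unprefixed was 1.35 in the controls and -0.05 in the PAF1 KD-labelled libraries for MUC6, a difference of -1.41. It was 0.76 and -0.01 for MUC5B (-0.78) and 0.33 and -0.35 for MUC13 (-0.68). The counting intervals of the negative ratios of MUC6, MUC5B and MUC13, and of the positive ratio of MUC13, included 0.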

How the results depend on the processing

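No paired analysis was possible because the columns carry no replicate number to pair by. The prefix, which is no replicate number, served as a block in the fit with the prefix as a term, which called 304 genes and 3 members. In the group fit, 0 genes and 0 members were called, against 902 and 8 without the filter and 262 and 3 with DESeq2. Leaving out a library gave 0 to 1471 genes and 0 to 7 members. The class medians then ran from -1.20 to -0.52 (membrane-bound) and from -1.68 to 0.59 (gel-forming). Fold changes ran from -1.53 to 1.26 for MUC4, -2.31 to 1.00 for MUC16, -1.02 to 0.026 for MUC3A, -1.78 to 1.00 for MUC2 and -1.59 to 0.18 for MUC5AC, positive only without the SP-prefixed control. Leaving out a library in the other fits leaves no residual degrees of freedom and was not run. With the prefix as a term, the count of genes was 592 with upper quartile scaling, 1115 without the filter, 475 with a minimum count of 50 and 620 with lane 2 alone. MUC1, MUC20 and MUC5B were called under all alternatives of that fit. Members called were 5 with upper quartile scaling, 7 without the filter and 5 with lane 2. By prefix, 30 genes were called, and 0 (with 0 members) under RLE scaling, 195 under upper quartile, 59 under library size, 601 without the filter, 153 with a minimum count of 50, 67 with DESeq2, and 85 and 262 with lanes 1 and 2. Genes tested were 30366 without the filter, 12777 with a minimum count of 50, and 14753 and 14790 with lanes 1 and 2. DESeq2 and the other scalings had 16417. The cause of the differing counts was not tested. MUC3A, MUC13 and MUC6, with at most 91 counts, had the widest counting intervals.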
